A study of Arabis alpina with 9 samples.

Results

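Among the 9 libraries made from dissected shoot apices of the alpine perennial *Arabis alpina*, 3 carry the letter A in the header of the deposited read table, 1 for each genotype, and the remaining 6 carry the letter B or C. These 3 A libraries were set against the B and C libraries of the same genotype, so that every comparison was made among apices that share their genotype. The genotypes were the *pep2-1* mutant, the *pep1-1* mutant and the wild-type accession Pajares, and both mutants came out of an ethyl methanesulfonate mutagenesis of Pajares. For *pep2-1*, homozygous individuals were selected with a marker among segregating plants. All plants were 3 weeks old and had grown in long days of 16 h light and 8 h dark. The study's methods give 3 biological replicates per genotype and do not mention the letters. The labels number the replicates of a genotype and do not letter them, and no source used here says that a letter joins plants of different genotypes, how many apices went into a library, at which hour they were taken or in which batch RNA was extracted.

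Several of the programmes described here are linked in plants. The circadian clock is a loop of transcription factors in which the morning genes *CCA1* and *LHY*, the pseudo-response regulators of the day and the evening complex follow and repress each other over a day, and it sets the daily timing of light-harvesting, nitrate and sulfate genes. When sugar runs short, as at the end of a long night, plant cells induce genes that break down amino acids and store nitrogen in asparagine. Sulfate is reduced to sulfide and built into cysteine, or is passed as an activated sulfate to glucosinolates, the sulfur-rich defence compounds of the Brassicaceae.

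The A libraries held 13924783 to 16122625 reads in genes, against 12871904 to 23829973 in the B and C libraries, and the factors that scale library size lay between 0.981 and 1.03 over the 9 libraries. Shoot meristem and boundary markers were present, with a summed level of 200.3 to 250.1 CPM (reads of a gene scaled to a common library size) in the A libraries and 146 to 214 CPM in the B and C libraries, although the stem cell gene *CLV3* had 6 reads in all. In each genotype the sum of these markers was highest in A. It was 250 CPM against 195 and 214 CPM in *pep2-1*, and 200 CPM against 181 and 146 CPM in *pep1-1*. In the wild type it was 207 CPM against 168 and 154 CPM. None of the 6 markers tested passed the fold threshold used below, and 1 was higher in A at the adjusted p alone. Vascular markers summed to 335 CPM in *pep2-1* A against 365 and 346 CPM in B and C, 314 CPM in *pep1-1* A against 183 and 239 CPM, and 308 CPM in wild-type A against 235 and 293 CPM. Of the 7 vascular markers 2 were higher in A at the adjusted p alone and none passed the fold threshold. Their summed level in A was thus the lowest of the genotype in *pep2-1* and the highest in *pep1-1* and the wild type. The low sum in *pep2-1* A rested on *SUC2*, with 40.6 CPM against 97.7 and 83.5 CPM in B and C. In the same genotype *XCP1*, *XCP2*, *CESA4* and *CESA8* had A highest, and *CESA7* and *APL* had A between B and C. Root markers summed to 9.91 to 11.6 CPM in A and 8.99 to 14.6 CPM in B and C, with no read for *EXPA7*. Floral organ markers summed to 1.09 to 1.45 CPM in A and 0.866 to 1.72 CPM in B and C, and *AP1* and *AG* had no read. The tissue label was thus met, and the part of any difference in cell makeup in the results was not tested.

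Once the mean of each genotype was removed, the A libraries separated from the others on the first principal component, which held 49.2% of the remaining variance. Their scores were 17.1 in *pep2-1*, 22.5 in *pep1-1* and 27.7 in the wild type. The B and C libraries scored between -15.4 and -1.66, with *pep2-1* library C nearest to the A side. On the second component (16.4% of the variance), *pep2-1* library A at 14.6 and *pep1-1* library B at 17.2 stood away from the other 7 libraries, which scored between -9.63 and 5.07. Over all tested genes, 44.7% of the variance in log2 CPM lay between genotypes and 25.5% between A and the other letters. A difference between B and C shared by the genotypes held 5.12%, the part of the A difference that varied by genotype 13.7%, and the rest 11.0%.

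**Figure D1:**
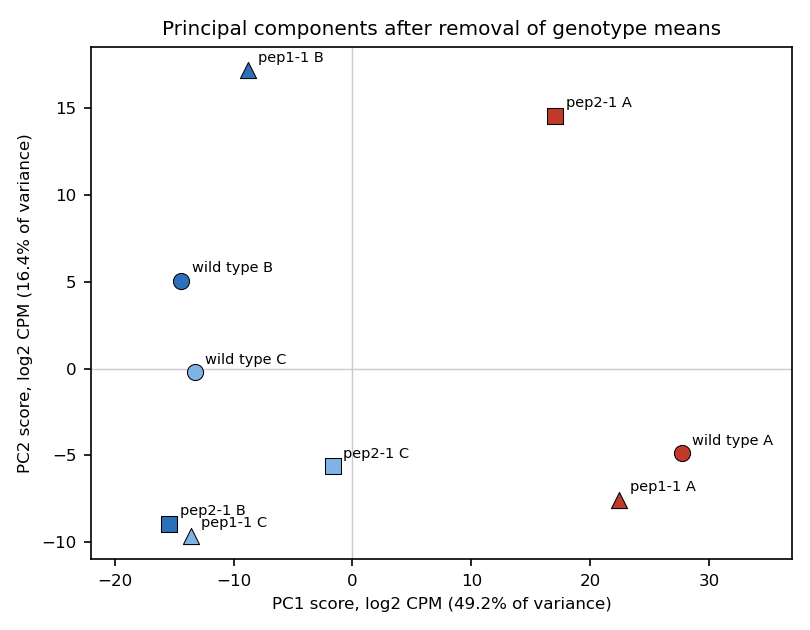
Scores of the 9 libraries on the first (x axis) and second (y axis) principal component of log2 CPM, after subtraction of each genotype's mean. Squares are *pep2-1*, triangles *pep1-1* and circles the wild type, with A in red, B in dark blue and C in light blue. The 3 A libraries sit at 17.1 or above on the first component and the other 6 at -1.66 or below.

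With genotype as covariate, 173 of 21713 tested genes were higher in A (0.797%) and 120 were lower (0.553%), by the quasi-likelihood test of edgeR with 0.05 as the limit of the adjusted p and 1 as the smallest log2 fold change counted. At the adjusted p alone these numbers were 1188 (5.47%) and 844 (3.89%), and 5537 genes had an unadjusted p under 0.05. Of the 293 called genes, 277 had an A library above both or below both of its B and C libraries in each of the 3 genotypes, in the same direction. Among all tested genes 2796 (12.9%) had A above B and C in each genotype and 2392 (11.0%) had A below. For 98 called genes the 3 A libraries lay all above or all below the other 6, whatever the genotype. Called genes were chosen for a difference of A, and the same count over all tested genes was not made, so 98 has no share to be set against. The median size of the log2 fold change of the called genes was 1.14 within *pep2-1*, 1.14 within *pep1-1* and 1.65 within the wild type. The number of calls leaned on the wild-type A library. Without it 50 genes were higher and 23 lower, whereas without *pep2-1* library A 260 were higher.

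Of 479 tested genes on 33 lists of pathways and tissues, 52 were called, against 293 of all 21713 tested genes (0.797% higher and 0.553% lower). The lists were drawn up with earlier results of these data known, so no list was tested. Lists with at least 4 called members were sugar starvation (7 of 14 lower), sulfur deficiency (7 of 15 higher and 1 lower), the morning clock (4 of 13 higher and 2 lower), photosystems and light harvesting (6 of 38 higher) and aliphatic glucosinolate synthesis (4 of 19 higher). The median log2 fold change over all tested genes was -0.00.

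**Figure D2:**
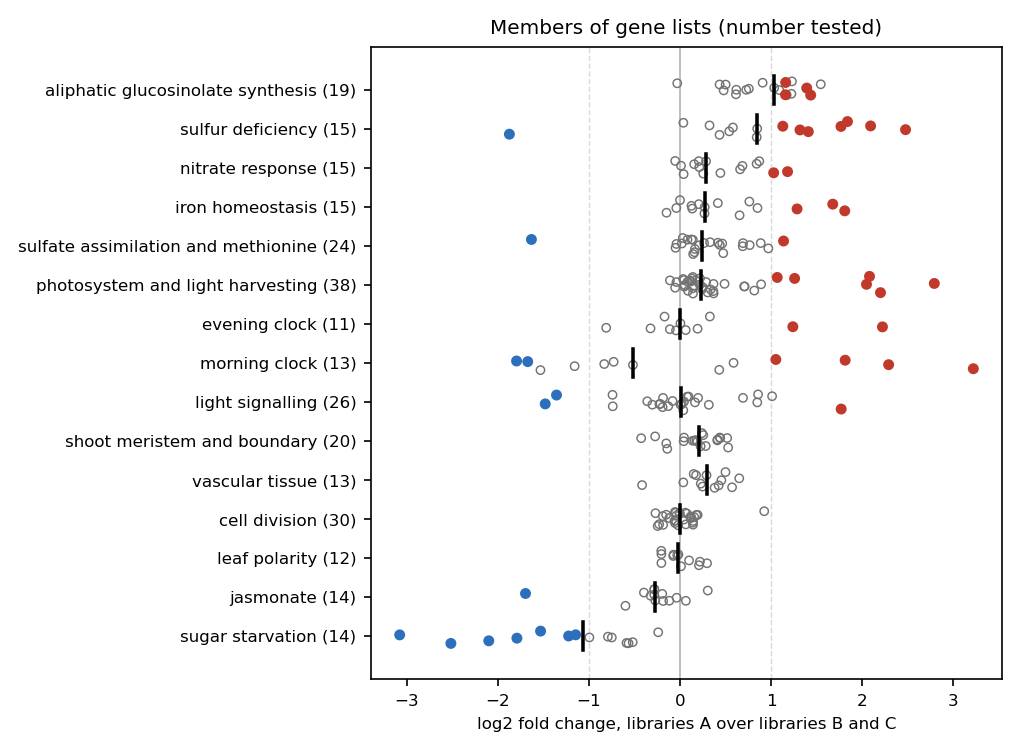
Log2 fold change of A over B and C (x axis) for each tested member of the gene lists (rows, with the number tested in brackets). Filled points are called genes, red when higher in A and blue when lower, open points were not called, the black bar is the median of the list and the dashed lines mark a log2 fold change of 1 in either direction. Members of the sugar starvation list lie all below 0, with a median of -1.07, and those of the sulfur deficiency list mostly above, with a median of 0.85.

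The morning clock list split in A. Of 13 tested members 4 were called higher and 2 lower, 4 were higher and 4 lower at the adjusted p alone, 7 had a negative log2 fold change, and the median was -0.52. The 4 called higher, *LNK1*, *LNK4*, *PRR7* and *RVE7*, had A above B and C in each genotype. *LNK1*, a coactivator that works with the REVEILLE factors, stood at 25.3 CPM in *pep2-1* A against 1.31 and 1.97 CPM in *pep2-1* B and C, at 4.94 CPM in *pep1-1* A against 1.59 and 1.17 CPM, and at 8.38 CPM in wild-type A against 0.696 and 0.773 CPM. Its log2 fold change of 3.22 (SE 0.29, adjusted p = 0.000562) was the largest rise among the genes named here, and the 3 A libraries lay above the 6 others. The gene lies on chromosome 8 (38501997 to 38506243 of the *A. alpina* assembly used by the authors). *PRR7*, a pseudo-response regulator that represses *CCA1* and *LHY*, had 130 CPM in *pep2-1* A against 29.1 and 39.3 CPM in B and C. In *pep1-1* it had 58.1 CPM in A against 20.0 and 25.5 CPM, and in the wild type 77.1 CPM in A against 17.2 and 18.4 CPM. The groups did not overlap (log2 fold change 1.81, SE 0.13, adjusted p = 0.000179). *LNK4*, a short relative of *LNK1*, rose by a log2 fold change of 2.29 (adjusted p = 0.000106), with 5.55 to 17.1 CPM in A and 1.56 to 3.25 CPM in B and C. *RVE7*, a MYB-like factor of the *CCA1* family, rose by 1.05 on the log2 scale (adjusted p = 0.00121). It fell to 0.85 without *pep2-1* library A and to 0.99 without *pep2-1* library C, below the fold threshold.

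*GI* and *PRR5*, which peak later in the day, were also higher. *GI*, a large protein that binds the blue-light receptors of the clock, had 80.8 CPM in *pep2-1* A against 22.9 and 31.9 CPM in B and C, 50.3 CPM in *pep1-1* A against 7.29 and 14.1 CPM, and 61.7 CPM in wild-type A against 9.05 and 7.31 CPM. All 3 A libraries were above the 6 others (log2 fold change 2.22, SE 0.22, adjusted p = 0.000787). For *PRR5* the A libraries held 61.3 CPM in *pep2-1*, 43.9 CPM in *pep1-1* and 58.6 CPM in the wild type, and the B and C libraries 17.4 to 39.8 CPM (log2 fold change 1.24, adjusted p = 0.000955). The remaining 9 members of the evening list were not called, and the list median was 0.00.

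Some morning genes were lower in A. *RVE1*, a MYB-like factor that ties the clock to auxin, had 2.84 CPM in *pep2-1* A, 3.72 CPM in *pep1-1* A and 3.43 CPM in wild-type A. In the B libraries it had 11.9 CPM in *pep2-1*, 14.8 CPM in *pep1-1* and 20.9 CPM in the wild type, and in the C libraries 4.81 CPM in *pep2-1*, 7.03 CPM in *pep1-1* and 11.1 CPM in the wild type. The 3 A libraries were the lowest of the 9. It fell by 1.8 on the log2 scale (adjusted p = 0.0147), and without wild-type library A the adjusted p was 0.136. Its close relative *RVE2* fell by 1.67 (adjusted p = 0.00295). *LHY*, *CCA1* and *RVE8*, the MYB factors of the loop itself, did not pass the test (adjusted p = 0.24, 0.631 and 0.0667). *LHY* had 11.1 CPM in *pep2-1* A against 9.20 and 3.39 CPM in B and C, but 3.45 CPM in *pep1-1* A against 22.7 and 10.9 CPM, and 4.67 CPM in wild-type A against 32.8 and 18.3 CPM. In *pep2-1* its A library was thus the highest of the genotype and in *pep1-1* and the wild type the lowest. *CCA1* had the same order at levels of at most 4.01 CPM. For *RVE1*, *LHY*, *CCA1* and *RVE8* the B library was above the C library in every genotype, and none of these differences between B and C passed the test.

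**Figure D3:**
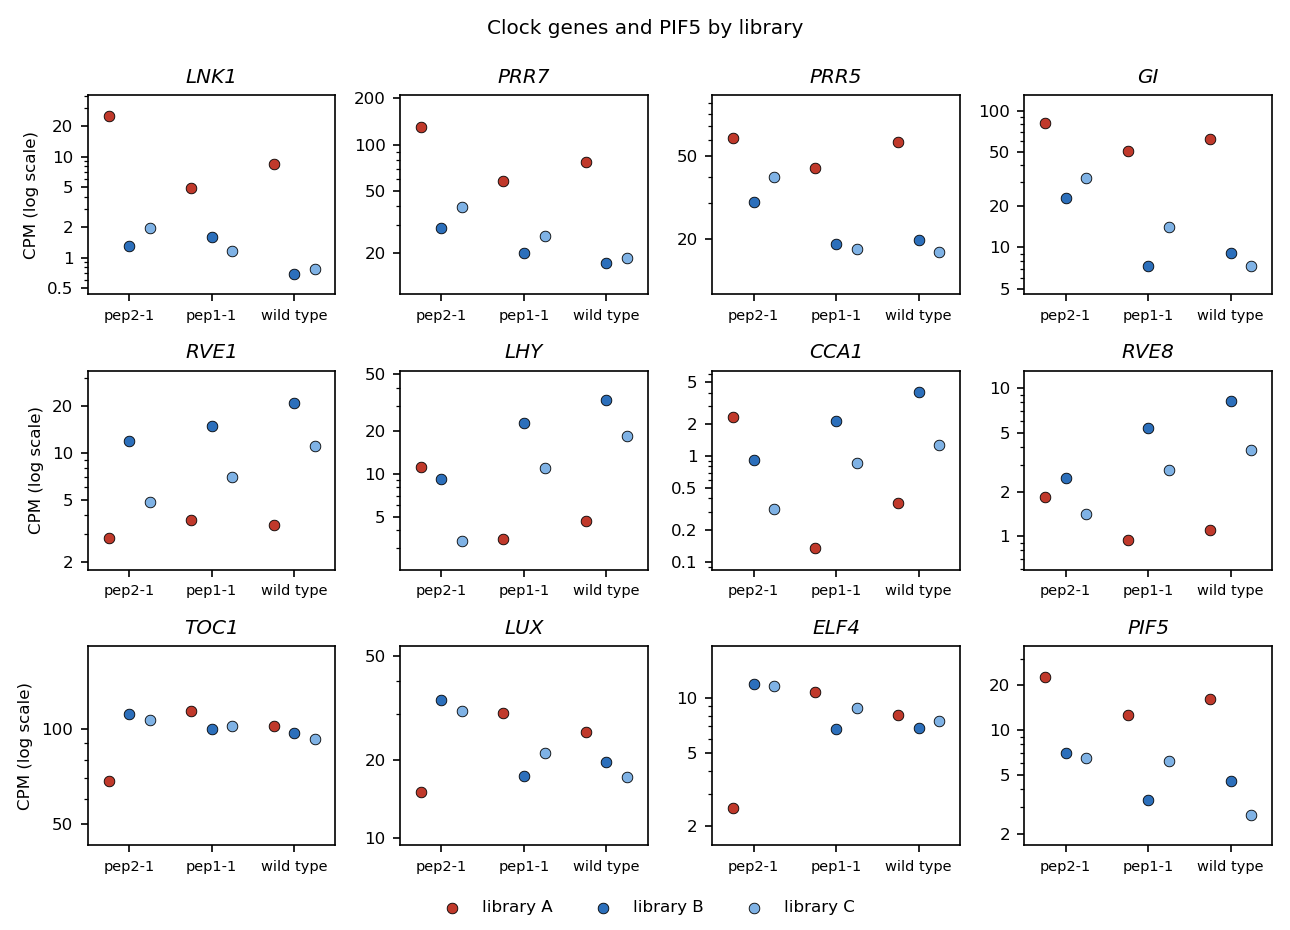
Level of 11 clock genes and of *PIF5* in each library (y axis, CPM on a log scale) by genotype (x axis), with library A in red, B in dark blue and C in light blue. *LNK1*, *PRR7*, *PRR5*, *GI* and *PIF5* have the 3 A points above the 6 others, *RVE1* has them below, and *TOC1*, *LUX* and *ELF4* have a low A point in *pep2-1* alone.

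The late genes of the clock differed in A by genotype. *ELF4*, a subunit of the evening complex, had 2.53 CPM in *pep2-1* A against 11.9 and 11.6 CPM in B and C, whereas *pep1-1* had 10.8 CPM in A against 6.78 and 8.75 CPM, and the wild type 8.09 CPM in A against 6.88 and 7.45 CPM. *LUX*, the DNA-binding subunit of the same complex, had 15 CPM in *pep2-1* A against 33.9 and 30.6 CPM, 30.3 CPM in *pep1-1* A against 17.3 and 21.2 CPM, and 25.4 CPM in wild-type A against 19.6 and 17.2 CPM. *TOC1*, which represses the morning genes, had 68.6 CPM in *pep2-1* A against 111 and 107 CPM, 114 CPM in *pep1-1* A against 99.9 and 102 CPM, and 102 CPM in wild-type A against 97.1 and 92.7 CPM. The A library of *pep2-1* was the lowest of all 9 for each of these genes, while in *pep1-1* and the wild type A was above B and C. The interaction of genotype and A had an adjusted p of 0.0158 for *ELF4*, 0.0212 for *LUX* and 0.0488 for *TOC1*. None kept it when a B or C library of *pep2-1* or of the wild type was left out (adjusted p 0.0643 to 0.235). *FKF1*, a blue-light receptor of the clock that was named after its values were seen, also had *pep2-1* A at 6.44 CPM against 18.9 and 20.6 CPM and the other genotypes in the opposite direction.

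Light signalling genes moved in both directions. Of 26 tested, 1 was called higher and 2 lower, with a median of 0.01. *PIF5*, a growth-promoting bHLH factor of the phytochrome pathway, had 22.9 CPM in *pep2-1* A against 7.03 and 6.46 CPM in B and C, 12.5 CPM in *pep1-1* A against 3.39 and 6.17 CPM, and 16.3 CPM in wild-type A against 4.54 and 2.67 CPM. The groups did not overlap (log2 fold change 1.77, SE 0.19, adjusted p = 0.0009). *HY5* and *HYH*, the paired bZIP factors of light signalling, fell by 1.36 (adjusted p = 0.00624) and 1.48 (adjusted p = 0.0131) on the log2 scale. *HY5* had 2.62 to 3.59 CPM in A and 4.81 to 11.7 CPM in B and C. Without wild-type library A both missed the test, at an adjusted p of 0.0648 for *HY5* and 0.138 for *HYH*, and *HYH* also missed it without *pep1-1* library A (0.0603). Of 14 *CONSTANS*-like and *CDF* genes, 2 were higher, both DOF-type repressors of *CONSTANS*. *CDF1* rose by 1.55 on the log2 scale (adjusted p = 0.00586, and 0.0754 without wild-type library A) and *CDF3* by 1.02 (adjusted p = 0.00419). *CDF3* missed the call without wild-type library A (0.83, adjusted p = 0.062) and without wild-type library C (0.91).

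Some light-harvesting genes were higher in A, more of them in *pep2-1* and the wild type than in *pep1-1*. Of 38 photosystem and light-harvesting genes, 6 were higher and 0 lower, 11 were higher and 0 lower at the adjusted p alone in edgeR, and 35 had a positive log2 fold change (median 0.23). Within the genotypes the median was 0.28 with 7 members called higher in *pep2-1*, 0.03 with 1 in *pep1-1* and 0.41 with 6 in the wild type, a difference that was not tested for the list. *LHCA4*, an antenna protein of photosystem I, had 739 CPM in *pep2-1* A against 119 and 159 CPM in B and C, 303 CPM in *pep1-1* A against 90.8 and 139 CPM, and 441 CPM in wild-type A against 95.8 and 76.4 CPM. All A libraries were above all others (log2 fold change 2.08, SE 0.19, adjusted p = 0.000562). The 3 antenna genes of photosystem II described next were lower in *pep1-1* A than in the A libraries of the other genotypes. A gene assigned to *LHCB2.3* on chromosome 5 (2958663 to 2959927) had 259 CPM in *pep2-1* A, 37.2 CPM in *pep1-1* A and 128 CPM in wild-type A, and 19.0 to 44.4 CPM in B and C (log2 fold change 2.2, adjusted p = 0.00256). *LHCB1.4* had 636 to 1715 CPM in A and 160 to 493 CPM in B and C (log2 fold change 2.05, adjusted p = 0.00134). *LHCB4.2* rose by 1.07 (adjusted p = 0.00376), and its call was lost without wild-type library A (adjusted p = 0.0541), without wild-type library C (1.00, just under the threshold) and without *pep2-1* library A (0.82). Genes of the LHCB1 and LHCB2 families have near-identical copies, so reads may be split between them, and 2 genes here carry the name *LHCB2.3*. Without wild-type or *pep2-1* library A, 3 members were called instead of 6.

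Sugar starvation genes were lower in A. All 14 tested members had a negative log2 fold change (median -1.07). Of these, 7 were lower in A and 13 were lower at the adjusted p alone. The median was -0.65 within *pep2-1*, -0.76 within *pep1-1* and -1.35 within the wild type. *ASN1*, the dark-induced asparagine synthetase, had 26.3 CPM in *pep2-1* A against 185 and 94.0 CPM in B and C, 140 CPM in *pep1-1* A against 374 and 851 CPM, and 50.6 CPM in wild-type A against 386 and 474 CPM. In every genotype A was below both others, although *pep1-1* A was above *pep2-1* C. It fell by 2.52 on the log2 scale (SE 0.31, adjusted p = 0.0018). *BCAT2*, an aminotransferase of branched-chain amino acids, had 1.83 CPM in *pep2-1* A against 7.42 and 4.26 CPM, 7.92 CPM in *pep1-1* A against 35.9 and 73.0 CPM, and 1.75 CPM in wild-type A against 37.1 and 47.2 CPM. With a log2 fold change of -3.08 (SE 0.41, adjusted p = 0.0027) it fell furthest of the named genes. In both genes the mutant *pep2-1* had the lowest B and C libraries. Such a difference in bulk RNA may lie in fewer cells of a type or in less RNA per cell, which cannot be told apart here.

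The other called members of this list were *SEN1*, *DIN10*, *MIOX2*, *DRM1* and *MCCA*. *DRM1*, a dormancy marker of buds, had 70.3 CPM in *pep2-1* A against 208 and 146 CPM, 187 CPM in *pep1-1* A against 313 and 386 CPM, and 86.5 CPM in wild-type A against 226 and 252 CPM (log2 fold change -1.22, adjusted p = 0.00115). *SEN1* and *DIN10*, both known as dark-induced genes, fell by 2.1 and 1.53 on the log2 scale (adjusted p = 0.0131 and 0.0179). *MIOX2*, a myo-inositol oxygenase, fell by 1.79 (adjusted p = 0.00734), and *MCCA*, a subunit of the carboxylase that degrades leucine, fell by 1.15 (adjusted p = 0.00521). A gene described as a dormancy and auxin associated protein fell by 1.81 (AALP_AAs55026U000700, adjusted p = 0.0084), with 41.1 to 229.8 CPM in A and 241 to 611 CPM in B and C. Without wild-type library A, *ASN1*, *BCAT2* and *DRM1* stayed called, while *SEN1*, *DIN10*, *MIOX2*, *MCCA* and the dormancy associated gene had an adjusted p of 0.118, 0.145, 0.0775, 0.0551 and 0.0655. Without *pep1-1* library A that of *SEN1* was 0.0846. The list median stayed between -1.19 and -0.89 under all alternatives.

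Sulfur deficiency genes were higher in A. Of 15 tested, 7 were called higher and 1 lower, 11 were higher at the adjusted p alone, and the median was 0.85 (0.94 within *pep2-1*, 0.67 within *pep1-1* and 1.08 within the wild type). *SDI2*, a sulfur deficiency-induced protein, had 61.6 CPM in *pep2-1* A against 11.1 and 18.8 CPM in B and C, 10.8 CPM in *pep1-1* A against 4.40 and 3.05 CPM, and 23.8 CPM in wild-type A against 3.89 and 4.07 CPM (log2 fold change 2.09, SE 0.19, adjusted p = 0.000562). Its relative *SDI1*, which holds back glucosinolate synthesis in Arabidopsis, rose by 1.77 (adjusted p = 0.0018). The enzymes that reduce activated sulfate followed. *APR3* had 125 CPM in *pep2-1* A against 20.1 and 33.3 CPM, 18.3 CPM in *pep1-1* A against 8.88 and 8.98 CPM, and 41.0 CPM in wild-type A against 11.5 and 8.71 CPM (log2 fold change 1.84, SE 0.20, adjusted p = 0.000935). Its paralogs *APR1* and *APR2* rose by 1.41 and 1.32. Within each genotype A was above B and C for *SDI2* and *APR3*, but *pep1-1* A was below *pep2-1* B and C for both. *LSU2* and the transporter *SULTR2;1* were the remaining called genes that rose, whereas *BGLU28*, a thioglucosidase, fell by 1.88 (adjusted p = 0.025) at levels under 1 CPM in all 9 libraries. Its call was lost without library A, B or C of the wild type (adjusted p = 0.14, 0.0538 and 0.0594), without *pep1-1* library A (0.187) and without *pep2-1* library B (0.0561), and DESeq2 gave it no adjusted p. *SULTR2;1* had 167 CPM in *pep2-1* A, between the 112 and 174 CPM of *pep2-1* B and C. Without wild-type library A, 4 members stayed called higher, and *LSU2*, *APR1* and *SULTR2;1* did not (adjusted p = 0.0697, 0.065 and 0.166). *LSU2* was also lost without *pep2-1* library A (0.0551), and *SULTR2;1* without wild-type library B (0.0554), *pep1-1* library A (0.111) and, by the fold, *pep1-1* library B (log2 fold change 0.99).

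Of 24 genes of sulfate assimilation and methionine synthesis, 1 was called higher and 1 lower, with 7 higher at the adjusted p alone (median 0.24). *SERAT2;1*, a serine acetyltransferase of cysteine synthesis, rose by 1.14 (adjusted p = 0.00709, and 0.0818 without wild-type library A), and without *pep1-1* library A it was at 0.91. *MGL*, the methionine gamma-lyase that breaks methionine down, had 23.4 CPM in *pep2-1* A against 61.7 and 49.2 CPM in B and C, 56.9 CPM in *pep1-1* A against 148 and 176 CPM, and 28.2 CPM in wild-type A against 138 and 117 CPM. It fell by 1.63 on the log2 scale (SE 0.16, adjusted p = 0.000718), so that the enzyme breaking down a sulfur amino acid and those reducing sulfate moved in opposite directions.

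**Figure D4:**
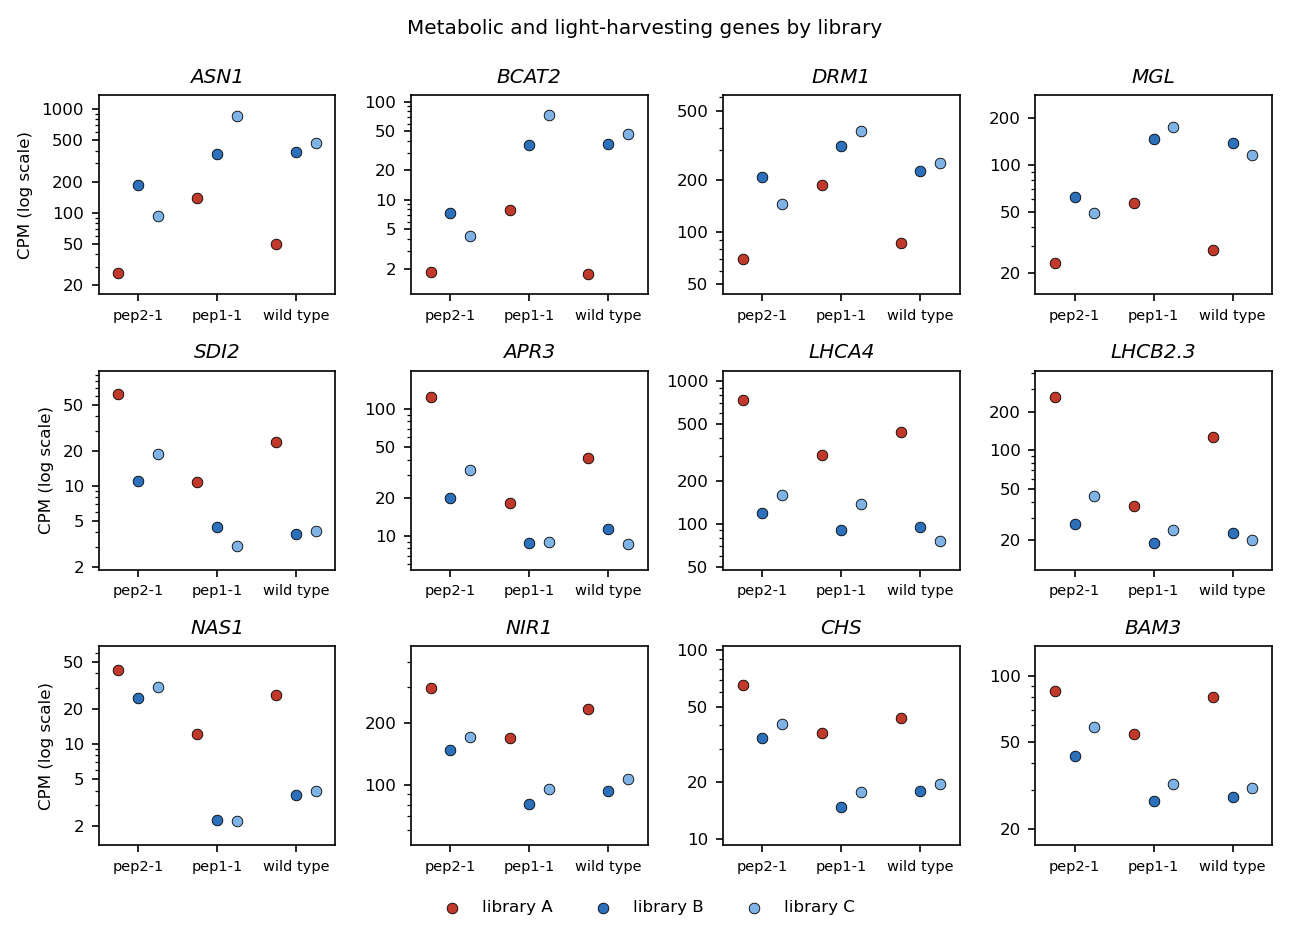
Level of 12 genes in each library (y axis, CPM on a log scale) by genotype (x axis), with library A in red, B in dark blue and C in light blue. The top row shows *ASN1*, *BCAT2*, *DRM1* and *MGL*, in which A is the lowest library of every genotype, and the 8 genes below have A as the highest library of every genotype, from *SDI2* with 10.8 to 61.6 CPM in A to *LHCA4* with 303 to 739 CPM in A.

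Nitrate assimilation, metal chelation and flavonol synthesis each had a few members higher in A. Of 15 nitrate genes, 2 were called higher and 6 were higher at the adjusted p alone (median 0.29). *NIA1*, a nitrate reductase, rose by 1.18 (adjusted p = 0.000789), and its 3 A libraries (164 to 248 CPM) were above the 6 others (66.2 to 149 CPM). *NIR1*, the nitrite reductase of the next step, had 298 CPM in *pep2-1* A against 148 and 172 CPM, 170.0 CPM in *pep1-1* A against 80.9 and 95.3 CPM, and 235 CPM in wild-type A against 93.1 and 107 CPM (log2 fold change 1.03, adjusted p = 0.000389). Without wild-type library A its log2 fold change was 0.92 and without wild-type library B 0.98. Of 15 iron genes, 3 were higher, all nicotianamine synthases, which make a chelator of iron and zinc. *NAS1* had 42.5 CPM in *pep2-1* A against 24.5 and 30.5 CPM in B and C, 12 CPM in *pep1-1* A against 2.24 and 2.19 CPM, and 26.4 CPM in wild-type A against 3.68 and 3.93 CPM (log2 fold change 1.81, adjusted p = 0.00783). *NAS3* and *NAS4* rose by 1.29 and 1.68. The rise of *NAS1* was 0.63 within *pep2-1*, 2.44 within *pep1-1* and 2.80 within the wild type, with an adjusted p of 0.00832 for the interaction, which was 0.0686 without wild-type library B and 0.0637 without *pep2-1* library C. Without wild-type library A none of the 3 synthases passed (adjusted p 0.0791 to 0.0949 in edgeR).

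Of 14 flavonoid genes, 2 were higher and 1 lower. *CHS*, chalcone synthase at the entry of the pathway, had 65.6 CPM in *pep2-1* A, 36.6 CPM in *pep1-1* A and 43.5 CPM in wild-type A, and 14.8 to 40.4 CPM in B and C (log2 fold change 1.06, adjusted p = 0.000562, and 0.98 without wild-type library A). *FLS1*, flavonol synthase, rose by 1.18 (adjusted p = 0.00236). *MYB111*, an activator of both in Arabidopsis, fell by 1.31 (adjusted p = 0.00519, and 0.0521 without wild-type library A), with 1.46 to 2.72 CPM in A and 4.57 to 6.09 CPM in B and C. The regulator and its known targets thus moved in opposite directions. Of 19 starch genes 1 was called, the chloroplast beta-amylase *BAM3*, which rose by 1.04 (adjusted p = 0.00189) and was at 0.82 without wild-type library A and 0.97 without wild-type library B.

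Aliphatic glucosinolate genes were higher in A in *pep1-1* (list median 2.04) and, to a lesser extent, in the wild type (0.84), whereas *pep2-1* had a list median of -0.17. The summed vascular markers had A as the lowest library in *pep2-1* (335 CPM against 365 and 346 CPM). They had A as the highest in *pep1-1* (314 CPM against 183 and 239 CPM) and the wild type (308 CPM against 235 and 293 CPM). The low sum in *pep2-1* A rested on *SUC2* (40.6 CPM against 97.7 and 83.5 CPM), while *XCP1*, *XCP2*, *CESA4* and *CESA8* had A highest. *CESA7* and *APL* had A between B and C. The part of vascular markers in the result was not tested. Of 19 tested genes 4 were called higher and 0 lower over the 3 genotypes, 18 had a positive log2 fold change and the median was 1.03. In 7 of the 19 A was above B and C in each genotype, *pep2-1* included, against 12.9% of all tested genes. Within the genotypes the median was -0.17 in *pep2-1*, 2.04 in *pep1-1* and 0.84 in the wild type. Within *pep2-1* no member was called, against 16 within *pep1-1* and 6 within the wild type. Over all genes, the calls were 88 higher (0.405%) and 43 lower (0.198%) within *pep2-1*, 118 higher (0.543%) and 17 lower (0.0783%) within *pep1-1*, and 193 higher (0.889%) and 113 lower (0.520%) within the wild type. Each of these comparisons had 1 A library, whose spread was taken to be that of the others. The call of the list was unsteady, with 1 member higher without wild-type library A, 0 without *pep1-1* library A and 13 without *pep2-1* library A, and with a median of 0.38 to 1.43 over the alternatives.

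*SOT17*, a sulfotransferase of the last step of the glucosinolate core, had 127 CPM in *pep2-1* A against 157 and 151 CPM in B and C, 113 CPM in *pep1-1* A against 25.3 and 23.2 CPM, and 84.0 CPM in wild-type A against 42.9 and 41.2 CPM. The A libraries of the 3 genotypes were thus closer to each other than the B and C libraries were, of which those of *pep2-1* were high and those of *pep1-1* low. *UGT74B1*, the glucosyltransferase of the step before, had 433 CPM in *pep2-1* A against 637 and 644 CPM, 511 CPM in *pep1-1* A against 158 and 161 CPM, and 391 CPM in wild-type A against 249 and 205 CPM. *FMOGS-OX1*, which oxidises the side chain, had 92.8 CPM in *pep2-1* A against 82.1 and 83.3 CPM, 41.8 CPM in *pep1-1* A against 9.81 and 8.91 CPM, and 45.6 CPM in wild-type A against 9.66 and 12.2 CPM. It was called over the 3 genotypes (log2 fold change 1.44, adjusted p = 0.0151), as were the isopropylmalate dehydrogenase *IPMDH1* (1.39, adjusted p = 0.012), the cytochrome P450 *CYP83A1* (1.16, adjusted p = 0.021) and the side-chain dioxygenase *AOP3* (1.16, adjusted p = 0.0018). In these 4 genes A was above B and C in *pep2-1* too. There *AOP3* had 397 CPM in A against 272 and 251 CPM. *IPMDH1* had 513 CPM against 415 and 350 CPM, and *CYP83A1* 389 CPM against 358 and 339 CPM. *FMOGS-OX1*, *IPMDH1* and *CYP83A1* missed the test without wild-type library A (adjusted p = 0.149, 0.0791 and 0.119). Without *pep1-1* library A all 4 missed the call, *FMOGS-OX1* and *CYP83A1* by the adjusted p (0.0883 and 0.077) and *IPMDH1* and *AOP3* by the fold (0.81 and 0.91). *CYP83A1* missed it also without *pep1-1* library B (0.98) or C and without wild-type library C (adjusted p = 0.0507 and 0.0519).

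*APK2* and *ATPS3*, which take part in the activation of sulfate, had the pattern of *SOT17* and *UGT74B1* and were named for their small interaction p. Of the 24 tested genes of sulfate assimilation and methionine synthesis, 2 were called in the interaction, against 0.304% of all genes. The median of that list was 0.10 within *pep2-1*, 0.27 within *pep1-1* and 0.33 within the wild type. *APK2*, the kinase that makes the sulfate donor of the sulfotransferases, had 240.1 CPM in *pep2-1* A against 292 and 301 CPM in B and C, 216 CPM in *pep1-1* A against 56.1 and 53.6 CPM, and 164 CPM in wild-type A against 102 and 90.8 CPM. *ATPS3*, an ATP sulfurylase, had 134 CPM in *pep2-1* A against 185 and 182 CPM, 155 CPM in *pep1-1* A against 63.4 and 67.2 CPM, and 108 CPM in wild-type A against 85 and 86.8 CPM. In both, A was the lowest library in *pep2-1* and the highest in the other genotypes. Indolic glucosinolate synthesis had no called member of 9 in edgeR (3 higher and 1 lower at the adjusted p alone), and the 4 tested MYB regulators of glucosinolates had none (1 higher at the adjusted p alone). Of 9 genes of breakdown and transport 1 was lower, the myrosinase-binding protein *MBP1* (log2 fold change -1.19, adjusted p = 0.00347, and 0.0503 without wild-type library A).

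**Figure D5:**
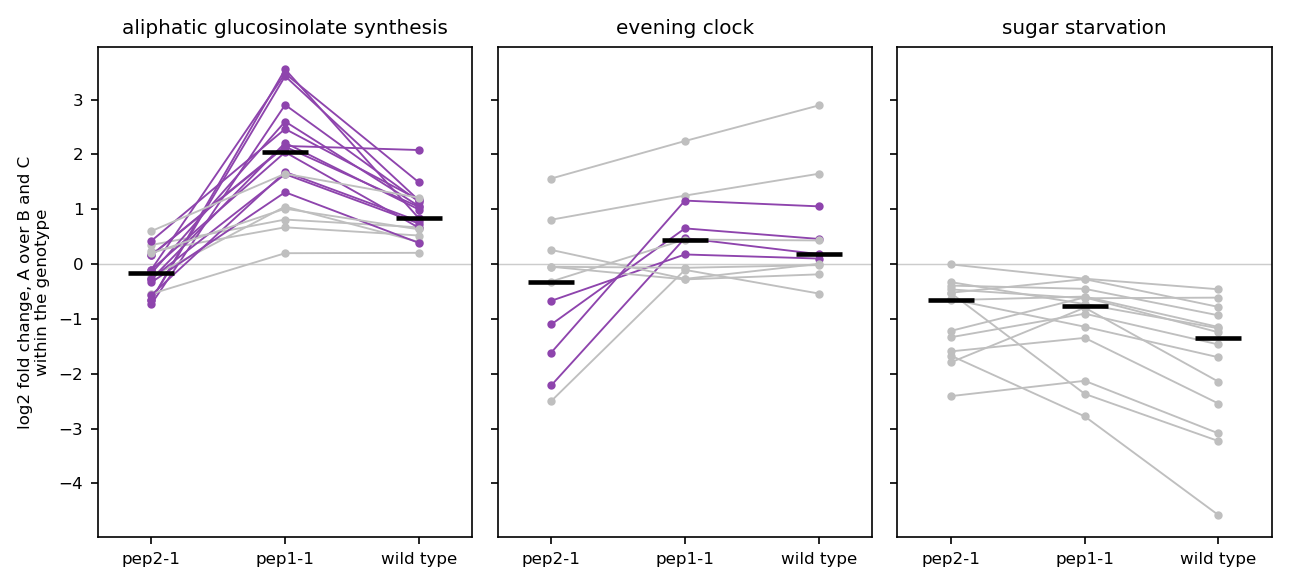
Log2 fold change of A over B and C within each genotype (y axis) for the members of 3 gene lists, with a line joining the values of a gene across *pep2-1*, *pep1-1* and the wild type (x axis). Purple lines are genes called in the interaction of genotype and A, grey lines are not, and the black dash is the list median. Of 19 aliphatic glucosinolate genes 13 are purple, with medians of -0.17, 2.04 and 0.84 from left to right, of 11 evening clock genes 4 are purple, and of 14 sugar starvation genes 0.

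The interaction of genotype and A was called for 66 of all tested genes (0.304%) at an adjusted p of at most 0.05 with edgeR, and 1620 genes had an unadjusted p under 0.05. Of the 66, 25 were on a list, and 13 of these belonged to aliphatic glucosinolate synthesis and 4 to the evening clock. The A difference was lowest in *pep2-1* for 52 of them and highest in *pep1-1* for 50. In the direct test of *pep2-1* against *pep1-1*, the A difference was higher in *pep2-1* for 20 genes (0.0921%) and lower for 73 (0.336%), of which 15 were aliphatic glucosinolate genes. The gene with the largest change in *pep2-1* among those named by this test was AALP_AA3G239700, described as an oxygenase that depends on oxoglutarate and iron. It had 6.76 CPM in *pep2-1* A against 79.0 and 70.4 CPM in B and C, 61.3 CPM in *pep1-1* A against 71.0 and 81.9 CPM, and 25.2 CPM in wild-type A against 60.2 and 68.1 CPM. A was below B and C in each genotype, by far the most in *pep2-1* (interaction adjusted p = 0.00173). Over the 3 genotypes it fell by 1.41 (adjusted p = 0.0498). That call was lost without wild-type library A, B or C (adjusted p = 0.204, 0.0929 and 0.0978), without *pep1-1* library C (0.056), without *pep2-1* library B or C (0.0867 and 0.0646), and by the fold without *pep2-1* library A (log2 fold change -0.78). The number of interaction calls leaned on single libraries. It was 10 without *pep2-1* library C, 16 without *pep2-1* library B, 29 without wild-type library B, 30 without wild-type library C, 375 without *pep1-1* library C and 395 without *pep1-1* library B.

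Further genes with large differences belonged to no list. AALP_AA7G169500, of unknown function, rose by 2.18 on the log2 scale (adjusted p = 0.00175), with 5.35 to 32 CPM in A and 0.505 to 14.1 CPM in B and C. AALP_AA7G051300, described as a lipid transfer protein, rose by 2.06 (adjusted p = 0.00226), and its A libraries (15.8 to 18.5 CPM) were above all others (2.11 to 10.5 CPM). Lower in A were genes described as a myo-inositol oxygenase (AALP_AA7G093700, log2 fold change -2.1), a phosphodiesterase (AALP_AA6G322000, -2.02), a TRAF-like protein (AALP_AA2G174100, -2.0), a mannose-binding lectin (AALP_AA4G039800, -1.84), a xyloglucan-modifying enzyme of the cell wall (AALP_AA7G154400, -1.83), a glyoxalase (AALP_AA1G173300, -1.79) and an enzyme of the family that frees auxin from amino acid conjugates (AALP_AA4G091700, -1.71). In each of these genes A was the lowest library in all 3 genotypes, which was a condition for naming them. Without wild-type library A the adjusted p was 0.0655 for the inositol oxygenase, 0.19 for the phosphodiesterase, 0.0695 for the lectin and 0.122 for the cell wall enzyme. The phosphodiesterase also missed the test without *pep1-1* library A or C or *pep2-1* library B (adjusted p = 0.0535, 0.0599 and 0.0657), and the cell wall enzyme without wild-type library B or C, *pep1-1* library A or *pep2-1* library B (adjusted p = 0.0626, 0.0568, 0.149 and 0.0526).

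Of all tested genes 0.797% were called higher in A and 0.553% lower in edgeR, and 5.47% were higher and 3.89% lower at the adjusted p alone. At these call shares, 0 called members in lists of 7 to 30 genes is near the share of all genes and does not set these lists apart. Several lists of growth, identity, hormones and stress had no called member in edgeR. These were cell division (0 of 30 called, 1 higher at the adjusted p alone, median -0.00), cytosolic ribosomal proteins (0 of 10, 1 higher at the adjusted p alone), shoot meristem and boundary genes (0 of 20, 4 higher at the adjusted p alone), leaf polarity (0 of 12), auxin response (0 of 12), gibberellin (0 of 18, 1 higher and 2 lower at the adjusted p alone), type-A response regulators of cytokinin (0 of 8, 2 higher at the adjusted p alone), vascular tissue (0 of 13, 3 higher at the adjusted p alone), trichome and stomatal lineage (0 of 14, 3 lower at the adjusted p alone), heat shock (0 of 7, 1 higher at the adjusted p alone), salicylic acid (0 of 14, 1 higher at the adjusted p alone) and rapid touch response (0 of 13). Members leaned most to a sign in the shoot meristem (16 of 20 positive), vascular (12 of 13 positive) and ribosomal lists (9 of 10 positive). The same held for trichome and stomatal (12 of 14 negative) and auxin response genes (10 of 12 negative). Of all 21713 tested genes 10755 were positive. A was above B and C in each genotype for 8 shoot meristem and 7 vascular genes (12.9% of all genes). It was below both for 6 trichome and stomatal genes (11.0% of all genes). Flowering-time genes had 0 of 15 called, with 3 higher and 3 lower at the adjusted p alone. Of 14 jasmonate genes 1 was lower, the lipoxygenase *LOX2*, with 14.8 to 24.7 CPM in A and 12.5 to 122 CPM in B and C (log2 fold change -1.70, adjusted p = 0.0342). It missed the test without library A, B or C of the wild type (adjusted p = 0.168, 0.0788 and 0.065), without *pep1-1* library A (0.171) and without *pep2-1* library B (0.109). Of 15 cold and drought genes 1 was lower, the galactinol synthase *GOLS2*, at 0.316 to 0.875 CPM in A and 1.08 to 3.64 CPM in B and C (adjusted p = 0.00477, and 0.0707 without wild-type library A).

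Between the letters B and C no gene was called for a difference shared by the genotypes, which is what this test measures. In the quasi-likelihood test of edgeR with genotype as covariate, 0 of 21713 genes passed, the smallest adjusted p was 0.166, and 591 genes had an unadjusted p under 0.05. DESeq2 called 2 genes and limma-voom 1. Within a genotype B and C could stand apart. On the first principal component they scored -15.4 and -1.66 in *pep2-1*, -8.83 and -13.6 in *pep1-1*, and -14.4 and -13.3 in the wild type. Their scores on the second were -8.92 and -5.63 in *pep2-1*, 17.2 and -9.63 in *pep1-1*, and 5.07 and -0.21 in the wild type.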

How the data were processed

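Libraries of polyadenylated RNA from the apices were sequenced from a single end (100 bp), and the authors aligned the reads to the *A. alpina* genome by TopHat with its defaults and tested the genotypes with CuffDiff. The tools' versions, the annotation release, the assembly version and the strand setting were not given in the sources used here. Values taken from the table were the estimated counts of raw reads per gene and library that the authors deposited without normalization. Of the 30690 genes, 64 had fractional reads, and these share start and end with another gene. Values were rounded. A further 18 columns of scaled reads and FPKM per library and the authors' columns per comparison (FPKM, log2 fold change, p, q) were not used, nor were the sheets of genes that passed the authors' tests.

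Low counts were removed in edgeR 4.0.16 under R 4.3.3 by filterByExpr with a minimum count of 10 and a minimum total of 15, and 21713 genes remained, of which 16567 had an Arabidopsis ortholog in the table. The model had genotype and A against B and C as terms and was fitted on all 9 libraries with TMM factors and the quasi-likelihood test. Benjamini-Hochberg adjustment ran over all tested genes, and calls needed an adjusted p no higher than 0.05 together with a log2 fold change of 1 or more in size. A second model gave each genotype its own A difference, with 3 residual degrees of freedom, and its interaction test had no fold threshold. CPM use TMM-scaled library sizes, and principal components log2 CPM with a pseudocount of 2. SE was derived from the test, as the size of the log2 fold change divided by the root of F. Scripts were tested on simulated data. The study gives 3 biological replicates per genotype. The p-values measure the spread between these libraries.

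Lists of Arabidopsis genes were matched through the ortholog column (540 of 607 genes found), which also gave the symbols. Named genes were the 12 largest called differences per direction with an annotated ortholog, a mean of at least 5 CPM and A outside B and C in each genotype, up to 4 called members per list with the smallest adjusted p, clock genes, and the 6 genes with the smallest interaction p. *SEN1*, *DIN10*, *RVE2*, *FKF1*, *LSU2*, *SULTR2;1*, *APR1*, *BGLU28* and the genes of the other observations were named after their values were seen. The lists, the rules and the contrast itself were chosen with earlier results of these data known, in which the A libraries stood apart, so the p-values of this contrast are no independent evidence that they do. Alternatives were other scaling, no filter, DESeq2 1.42.0, limma-voom (limma 3.58.1), the letter as a block, A over B or C alone, no genotype term, and leaving out each library. Alternatives for the counts per list and for the differences between pairs of genotypes were chosen after seeing the data. *PEP1* was not analysed here.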

Additional observations from a re-analysis of the deposited data

Results flagged for a closer look

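The named genes include the 6 with the smallest interaction p, called members of the lists and clock genes set in advance. The count and the kinds of genes given next follow in part from that choice. The A difference varied with genotype by the interaction test of edgeR for 13 of the named genes. Of these, 8 take part in glucosinolate synthesis or in the supply of sulfate to it, namely *SOT17* (adjusted p = 0.00109), *APK2* (0.00165), *UGT74B1* (0.00275), *ATPS3* (0.00275), *SOT18* (0.00306), *FMOGS-OX1* (0.0037), *CYP83A1* (0.0111) and *IPMDH1* (0.0158). *SOT18*, a sulfotransferase like *SOT17*, had 166 CPM in *pep2-1* A against 188.3 and 212 CPM in B and C, 177 CPM in *pep1-1* A against 57.5 and 56.1 CPM, and 146 CPM in wild-type A against 90.6 and 84.1 CPM. The A libraries of the 3 genotypes were close to each other in this gene, and the B and C libraries were not. The evening clock genes *ELF4* (adjusted p = 0.0158), *LUX* (0.0212) and *TOC1* (0.0488), the nicotianamine synthase *NAS1* (0.00832) and the oxygenase gene AALP_AA3G239700 (0.00173) were the other 5. The interaction test was lost for *CYP83A1* (adjusted p = 0.105 and 0.0994), *FMOGS-OX1* (0.0559 and 0.0637) and *IPMDH1* (0.105 and 0.0838) without *pep2-1* library B or C, and for *IPMDH1* also without wild-type library B or C (0.0686 and 0.0613). The sources used here do not give the hour of harvest or the handling of each library, and their part in these differences was not tested.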

How the results depend on the processing

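Against 173 genes higher and 120 lower in A in all, edgeR gave totals of 68 and 57 with C alone as reference, 14 and 3 with no genotype term, and 1188 and 844 at the adjusted p alone. With the letter as a replicate block they were 165 and 115. Library deviations correlated at 0.312 to 0.626 between A libraries, 0.0769 to 0.388 between B libraries and -0.0273 to 0.319 between C libraries. Each value between A libraries was above every value of an A library with a B or C library of another genotype (at most 0.0382). The letters B and C did not match in this way across all 3 genotypes. Between different letters they correlated at -0.533 to 0.426. Between *pep1-1* and the wild type each same-letter value (0.626, 0.385 and 0.319) was above every different-letter value (at most 0.240). *pep2-1* library B was closer to library C of *pep1-1* (0.387) and the wild type (0.426) than to their B libraries (0.0769 and 0.388). Leaving out each library in turn gave 50 to 260 higher and 23 to 162 lower genes. For B over C, DESeq2 called 2 genes and limma-voom 1, against 0. The 66 interaction calls were 133 with DESeq2, 108 with limma-voom and 10 to 395 with a library left out. Within *pep1-1*, DESeq2 called 30 genes lower, against 17. For the A difference in *pep2-1* over that in *pep1-1*, DESeq2 called 33 genes higher, against 20. In *pep2-1* over the wild type, 3 genes were higher (14 with DESeq2, 9 with limma-voom) and 13 lower (30 with DESeq2, 32 with limma-voom). In *pep1-1* over the wild type, edgeR called 0 in either direction (998 had an unadjusted p under 0.05), DESeq2 21 higher and 2 lower, and limma-voom 6 higher. Of the 54 called named genes, all kept their sign under every alternative, and *LNK1*, *LNK4*, *PRR7*, *PIF5* and *LHCA4* kept their call under all 19. Without wild-type library A 26 of the 54 stayed called, and without a genotype term 6. Sign changes with a library left out touched genes that were not called, namely *ELF4* (-0.82 to 0.33), *TOC1* (-0.27 to 0.14), *CCA1* (-3.08 to 0.16), *LUX* (-0.27 to 0.55) and *ATPS3* (-0.052 to 0.81). *CCA1* was also at 0.0021 with C alone. The cause was not tested. The largest shift of the median of all genes was -0.04, with library size alone. Within a genotype the A difference rests on 1 library, and levels under about 1 CPM rest on few reads.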

Other observations

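The genes of amino acid breakdown given here were picked after their values were seen. *ProDH1*, the first enzyme of proline breakdown, had 130.4 CPM in *pep2-1* A against 394 and 177 CPM in B and C, 277 CPM in *pep1-1* A against 713 and 748 CPM, and 131 CPM in wild-type A against 549 and 709 CPM. In each genotype A was the lowest library (log2 fold change -1.57, adjusted p = 0.00597 in edgeR). *ProDH2*, the threonine aldolase *THA1* and the E1 alpha subunit of the branched-chain ketoacid dehydrogenase fell by 1.09, 1.56 and 1.52 on the log2 scale, and *IVD*, isovaleryl-CoA dehydrogenase, had a log2 fold change of -0.75 and was not called. *BAM9*, a beta-amylase without known activity, fell by 1.4 (adjusted p = 0.0106), whereas *BAM3* of the same family rose.

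Families taken from the descriptions were not set in advance. Over all tested genes edgeR called 0.797% higher in A and 0.553% lower, and 5.47% and 3.89% at the adjusted p alone. Of 31 MtN21/EamA-like transporters 8 were called higher in A and 0 lower. The called members had log2 fold changes of 1.02 to 1.69, and the median over the family was 0.14. At the adjusted p alone 10 were higher and 4 lower. Of 90 cytochrome P450 genes 6 were higher and 1 lower. *CYP79C2*, a member of the family that starts glucosinolate synthesis, had 1019 CPM in *pep2-1* A against 549 and 508 CPM in B and C, 220 CPM in *pep1-1* A against 54.6 and 52.0 CPM, and 520 CPM in wild-type A against 155 and 155 CPM. A was the highest library in every genotype, also in *pep2-1*, where *SOT17* and *UGT74B1* had A as the lowest (log2 fold change 1.59, adjusted p = 0.000562, interaction adjusted p = 0.0212). Of 26 glutathione S-transferases 2 were higher, and 10 were higher and 0 lower at the adjusted p alone. Of 25 heavy metal transport genes 1 was called higher and 0 lower, and of 15 B-box genes also 1 and 0.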
